A study of Homo sapiens with 6 samples.

Results

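The epithelial to mesenchymal transition (EMT) genes examined here are 10 genes chosen by symbol, and all 10 were found among the 28008 symbols of the deposited count table. They comprise the epithelial adhesion genes CDH1 and EPCAM, the mesenchymal genes CDH2, VIM and FN1, and the transcription factors ZEB1, ZEB2, SNAI1, SNAI2 and TWIST1. All 10 were also in the deposited TPM table and passed the low-count filter of the test. The cells were NCI-H660, an established line of neuroendocrine prostate cancer (NEPC). Every library came from H660 cells that carried, on a puromycin-selected pLKO-tet-puro vector, a single doxycycline (DOX)-inducible short hairpin RNA against MUC1. DOX-negative cells received 0.1% DMSO as vehicle (3 libraries), and DOX-positive cells received 500 ng/ml DOX (3 libraries). Cells with a control hairpin were not analysed here, so an effect of DOX itself and one of MUC1 silencing cannot be told apart. The exposure to DOX lasted 7 days.

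EMT is a program in which epithelial cells loosen their contacts and gain motility. E-cadherin (CDH1) and EPCAM hold epithelial cells together, and N-cadherin (CDH2), the intermediate filament vimentin (VIM) and the matrix protein fibronectin (FN1) mark the mesenchymal state. SNAI, ZEB and TWIST proteins are DNA-binding factors that recognise E-box motifs, and SNAI and ZEB factors are known as repressors of CDH1. The question was which of these transcripts differed when the MUC1 hairpin was switched on.

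Total counts ranged from 47620696 to 74061121 per library. MUC1, in counts normalized to library size (CPM), measured 88.2, 90.2 and 79.6 CPM without DOX against 36.7, 37.2 and 29.9 CPM with DOX, a log2 difference of -1.32 (SE 0.096, adjusted p = 0.00017 by edgeR, n = 3 per group). Of the neuroendocrine markers CHGA, SYP, NCAM1, ENO2 and INSM1, all had counts in every library, and their summed level was 689 to 772 CPM without DOX and 542 to 657 CPM with DOX. Of 5 luminal prostate genes, KLK2 and KLK3 had at most 1 count in any library, and the list summed to 2.79 to 3.36 CPM without DOX and 2.36 to 3.05 CPM with DOX. DOX-negative replicate 3 stood apart in one respect. It held 15 genes with at least 10 counts that had at most 1 count in the other 5 libraries together, against 0 such genes in each other library. Among them were JCHAIN, an immunoglobulin joining chain with 167 counts, the lymphoid factor IRF4 with 92 counts, and MSN with 54 counts. Fits without this library are therefore given beside the results that rest on it, and its part in them was not otherwise tested.

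Of the EMT genes, FN1 and VIM rose with DOX and the other 8 did not pass the test. Called genes are those with a Benjamini-Hochberg adjusted p under 0.05 over all 17026 genes tested by edgeR's quasi-likelihood test. By this rule 2 of the 10 EMT genes were called, both higher, while 4.87% of all tested genes were called, 2.91% higher and 1.96% lower. Without DOX-negative replicate 3, 1 EMT gene (FN1) and 0.337% of tested genes were called. The median log2 fold change was 0.068 over the EMT genes and 0.00034 over all tested genes. In 5 of the 10 genes the DOX-positive and DOX-negative libraries did not overlap, and the same held for 28.1% of all tested genes. An exact permutation test of 3 against 3 libraries cannot give a two-sided p below 0.10. The labels state that cells were cultured in triplicate and do not say how separate the cultures were, so p values measure the spread between these libraries. In bulk RNA, a change in the share of cells that express a gene and a change in RNA per cell cannot be told apart.

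**Figure D1:**
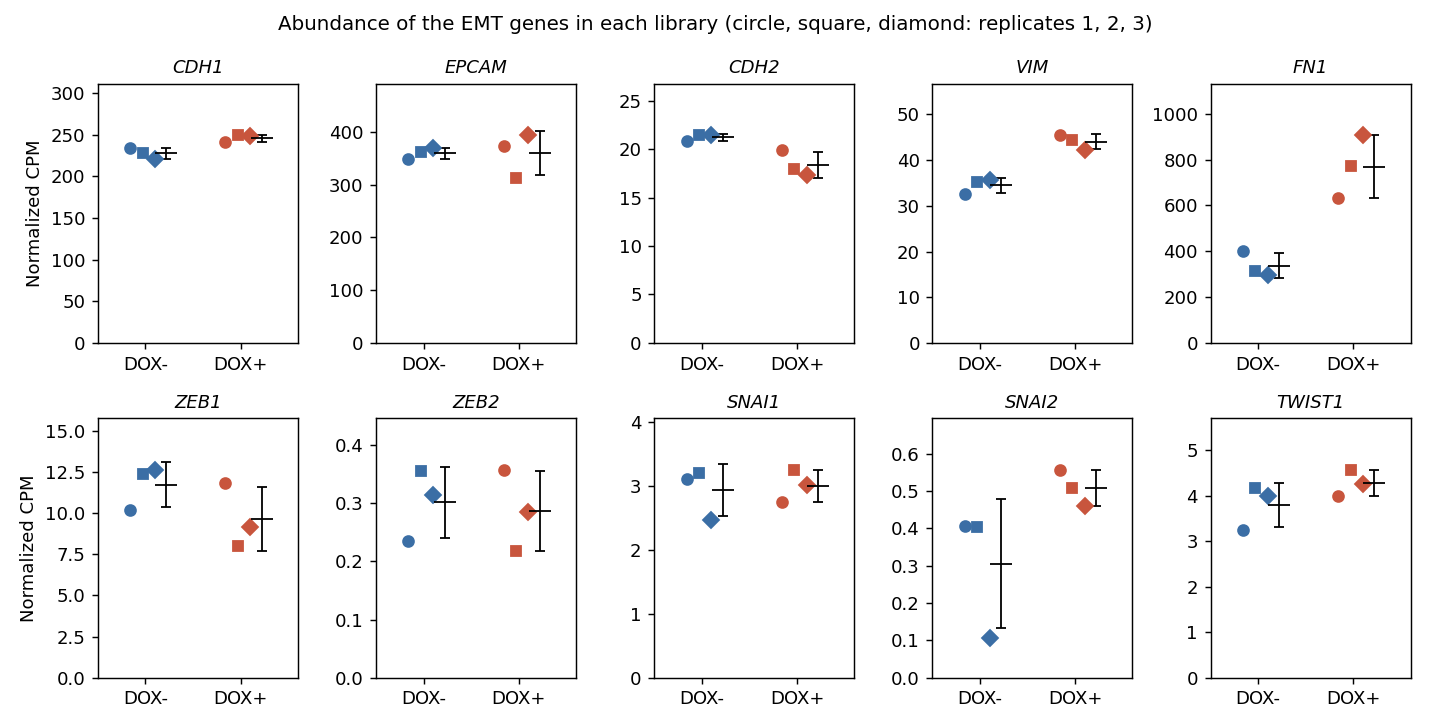
Normalized CPM (y axis, from 0) of the 10 EMT genes in DOX-negative (DOX-) and DOX-positive (DOX+) libraries, with replicates 1, 2 and 3 as circle, square and diamond and the mean ± SD (n = 3) beside them. The FN1 libraries separate by the widest margin, from 297 to 402 CPM without DOX and from 631 to 905 CPM with DOX, and SNAI2 has 1 low DOX-negative library.

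FN1 encodes fibronectin, a secreted glycoprotein of the extracellular matrix that binds integrins. Its normalized abundance was 402, 314 and 297 CPM in DOX-negative replicates 1, 2 and 3 and 631, 769.9 and 905 CPM in DOX-positive replicates 1, 2 and 3. Every DOX-positive library exceeded every DOX-negative library, and the spread among the DOX-positive libraries was the larger one. Means of the groups came to 337.5 ± 56.4 and 768.5 ± 137.0 CPM (SD, n = 3). FN1 rose 2.28-fold, or by 1.19 on the log2 scale (SE 0.14, 95% interval 0.88 to 1.5, adjusted p = 0.0025 by edgeR). It ranked 27 by p among the 17026 tested genes. In fits that each left out 1 library, the FN1 change lay between 1.05 and 1.33 and was called in all 6, with adjusted p values up to 0.045. Without DOX-negative replicate 3 it was 1.10 (adjusted p = 0.033). FN1 was called in 17 of all 19 alternatives and not in the other 2. With the replicate number as a block, its change was 1.19 (adjusted p = 0.062 by edgeR). On unfiltered log2(TPM + 1) it had an adjusted p of 0.33 by limma-trend.

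VIM encodes vimentin, the type III intermediate filament of mesenchymal cells. It was 32.6, 35.2 and 35.7 CPM without DOX and 45.4, 44.5 and 42.3 CPM with DOX. The groups did not overlap and each varied little, with means of 34.5 ± 1.65 and 44.1 ± 1.61 CPM (SD, n = 3). VIM rose 1.28-fold, or by 0.35 on the log2 scale (SE 0.078, 95% interval 0.18 to 0.53, adjusted p = 0.0265 by edgeR). Its call was less secure than that of FN1, as it was lost in 4 of the 6 fits without 1 library. These were the fits without DOX-negative replicate 1 (0.32, adjusted p = 0.10), 2 (0.37, adjusted p = 0.12) or 3 (0.37, adjusted p = 0.11) and without DOX-positive replicate 1 (0.33, adjusted p = 0.061). The direction held in all 19 alternatives, and VIM was called in 12 of them.

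**Figure D2:**
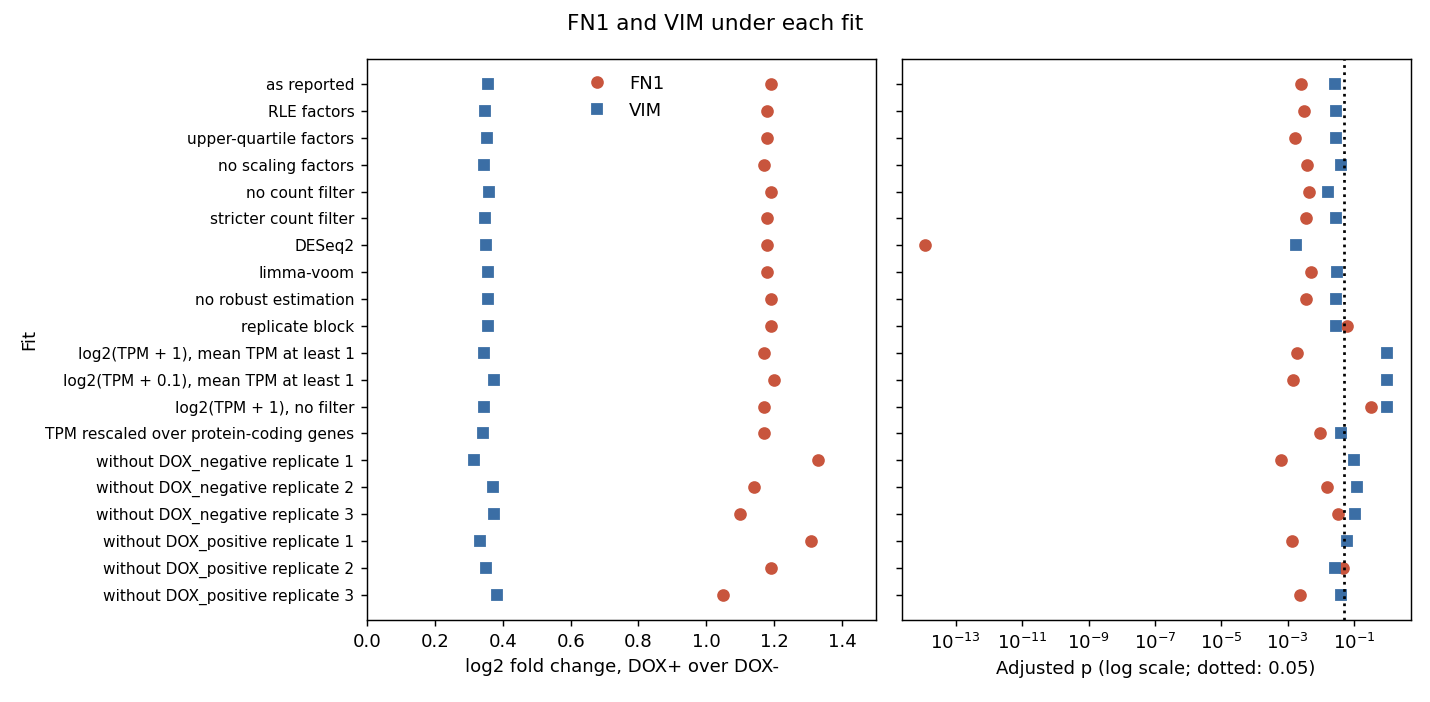
Log2 fold change (left) and adjusted p on a log axis (right) of FN1 (circles) and VIM (squares) in the reported edgeR fit and in each alternative fit, 1 row per fit. FN1 stays between 1.05 and 1.33 and VIM between 0.32 and 0.38, while the adjusted p crosses the dotted line at 0.05 in 2 alternatives for FN1 and 7 for VIM.

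Genes that overlap FN1 and VIM were examined because the strand setting of the counting was not stated. FN1 lies at chr2:215360865-215436068 (GRCh38.p14 in RefSeq) and overlaps ATIC, an enzyme gene of purine synthesis, at a mean of 79.1 CPM in DOX-negative and 83.2 CPM in DOX-positive libraries. FN1-DT, which also overlaps FN1, was not analysed here. The ATIC change was 0.073 (SE 0.081, adjusted p = 0.66), and its CPM was below that of FN1 in every library. In the deposited TPM, which are scaled by gene length, ATIC was above FN1 in DOX-negative replicates 2 and 3. VIM lies at chr10:17228241-17237593 and overlaps the long noncoding RNA VIM-AS1. VIM-AS1 was 7.18, 7.66 and 7.14 CPM without DOX and 11.1, 8.98 and 10.8 CPM with DOX, which on the log2 scale is a rise of 0.496 (SE 0.11, adjusted p = 0.026). VIM-AS1 thus rose with VIM, and without strand information the reads of the pair cannot be told apart.

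The sequences just upstream of the starts of FN1 and VIM are shown because these were the EMT genes that rose. The RefSeq promoter table held entries for CDH2, VIM, FN1, ZEB1 and ZEB2, and CDH1, EPCAM, SNAI1, SNAI2 and TWIST1 were without one. Each run gives the 250 bases before the annotated start in GRCh38.p14, 5′ to 3′ on the strand of the gene. Capitals mark matches to the GC box GGGCGG on either strand, a motif bound by SP family factors. FN1 is on the minus strand at chr2:215436069-215436318 and VIM on the plus strand at chr10:17227991-17228240.
FN1: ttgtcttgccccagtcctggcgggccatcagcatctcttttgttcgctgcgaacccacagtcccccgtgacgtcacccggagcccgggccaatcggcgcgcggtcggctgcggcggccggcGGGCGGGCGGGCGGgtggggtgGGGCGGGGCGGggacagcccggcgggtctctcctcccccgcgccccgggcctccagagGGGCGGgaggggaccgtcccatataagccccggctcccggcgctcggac
VIM: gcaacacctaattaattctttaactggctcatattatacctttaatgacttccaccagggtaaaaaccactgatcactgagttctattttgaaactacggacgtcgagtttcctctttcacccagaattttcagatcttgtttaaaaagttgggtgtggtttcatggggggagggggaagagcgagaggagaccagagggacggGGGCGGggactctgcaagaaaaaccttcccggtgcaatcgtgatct
The FN1 window was 76.4% G or C and held 6 GC boxes, some of which overlap, at positions from 129 to 49 bases before the start. The VIM window was 46.0% G or C and held 1 GC box. Over 34788 different promoter windows of the same length, 42.6% held at least 1 GC box. The E-box CAGGTG, to which SNAI and ZEB factors bind, was searched on both strands and matched 0 times in either window. It occurred in 17.5% of all windows. The general E-box CANNTG, which includes the former, also matched 0 times in either window, and 61.8% of all windows held it. These matches describe the letters of the windows and were not tested as sites.

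Among epithelial adhesion genes, neither CDH1 nor EPCAM passed the test by edgeR or DESeq2 (0 of 2, with 0 at an unadjusted p under 0.05 by edgeR). CDH1 encodes E-cadherin, the adhesion molecule of adherens junctions. It was 234, 228 and 221 CPM without DOX and 241, 249 and 248 CPM with DOX. All DOX-positive libraries lay above all DOX-negative libraries, but by a small margin. Means of the groups came to 227.6 ± 6.27 and 245.8 ± 4.28 CPM (SD, n = 3), which on the log2 scale differ by 0.11 (SE 0.067, 95% interval -0.034 to 0.26, adjusted p = 0.37). CDH1 had 14955 counts per library on average, and its 95% interval ran from 0.977-fold to 1.19-fold. EPCAM encodes an epithelial surface glycoprotein that takes part in cell adhesion. It was 348, 361 and 369 CPM without DOX and 373, 312 and 393 CPM with DOX. The groups overlapped, since the DOX-positive libraries held both the highest and the lowest value. The EPCAM change was 0.00069 (SE 0.088, 95% interval -0.19 to 0.19, adjusted p = 0.998).

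CDH2, which encodes N-cadherin, was the mesenchymal gene whose estimate was below 0. It was 20.8, 21.4 and 21.4 CPM without DOX and 19.9, 17.9 and 17.3 CPM with DOX. The groups did not overlap, with means of 21.2 ± 0.39 and 18.4 ± 1.33 CPM (SD, n = 3). The log2 fold change was -0.21 (SE 0.086, 95% interval -0.39 to -0.020), with an unadjusted p of 0.033 and an adjusted p of 0.19 by edgeR. It was below 0 in all 19 alternatives, between -0.27 and -0.13, and was called in 0 of them. The estimates of the mesenchymal genes CDH2, VIM and FN1 thus did not share a direction, and only VIM and FN1 passed the test in the reported fit.

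**Figure D3:**
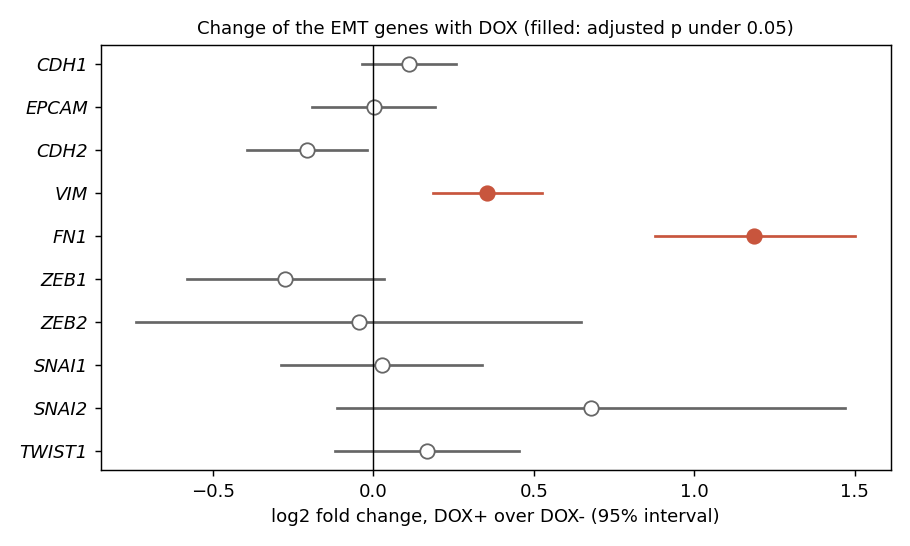
Log2 fold change of each EMT gene, DOX-positive over DOX-negative (x axis), with its 95% interval from the edgeR fit and 1 gene per row. Filled points are called genes (FN1 at 1.19 and VIM at 0.35), and of the other intervals only that of CDH2, from -0.39 to -0.020, leaves out 0.

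None of the 5 transcription factors was called by edgeR (0 of 5, with 0 at an unadjusted p under 0.05), and DESeq2 also called 0, giving ZEB2 no adjusted p. ZEB1, a zinc finger repressor, was 10.2, 12.4 and 12.6 CPM without DOX and 11.8, 8.0 and 9.14 CPM with DOX. DOX-positive replicate 1 lay within the DOX-negative range, and the other DOX-positive libraries lay below it. The ZEB1 change was -0.28 (SE 0.14, 95% interval -0.58 to 0.032, adjusted p = 0.29), and without DOX-positive replicate 1 it was -0.45 (adjusted p = 0.069). The overlapping ZEB1-AS1 changed by -0.085 (SE 0.12, adjusted p = 0.73). SNAI1, which encodes the zinc finger repressor Snail, was 3.11, 3.20 and 2.46 CPM without DOX and 2.74, 3.24 and 3.01 CPM with DOX. Its groups overlapped, and its change was 0.026 (SE 0.14, 95% interval -0.29 to 0.34, adjusted p = 0.95). TWIST1, a basic helix-loop-helix factor, was 3.25, 4.17 and 3.99 CPM without DOX and 4.00, 4.56 and 4.26 CPM with DOX. Here too the groups overlapped, with a change of 0.17 (SE 0.13, 95% interval -0.12 to 0.45, adjusted p = 0.51).

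SNAI2 and ZEB2 were sparsely counted. SNAI2, which encodes Slug, had 26, 25 and 5 counts in DOX-negative replicates 1, 2 and 3 and 42, 28 and 34 counts in DOX-positive replicates 1, 2 and 3. The 5 counts of DOX-negative replicate 3 have an exact 95% Poisson interval of 1.62 to 11.7, which covers counting error only. On the CPM scale SNAI2 was 0.41, 0.40 and 0.11 without DOX and 0.56, 0.51 and 0.46 with DOX, so the groups did not overlap. Its change was 0.68 (SE 0.36, 95% interval -0.11 to 1.47, adjusted p = 0.31). Without DOX-negative replicate 3, the library that stood apart, the SNAI2 change was 0.32 (adjusted p = 0.67), and without DOX-negative replicate 1 it was 0.92 (adjusted p = 0.26). ZEB2, a paralog of ZEB1, had 15, 22 and 15 counts without DOX and 27, 12 and 21 counts with DOX. The ZEB2 groups overlapped, and its change of -0.045 had a 95% interval from -0.74 to 0.65 (adjusted p = 0.96). The intervals of SNAI2 and ZEB2 each held both no change and the VIM change of 0.35. In these libraries the 2 could thus not be told apart for either gene, and a detection limit was not computed.

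Levels between genes were compared in the deposited TPM, which are scaled by gene length. RNAs from genes that are not protein-coding held between 80.4% and 86.8% of the TPM of a library, and RN7SK, SNORD3A, RN7SL1, RN7SL2 and RPPH1 alone held between 71.6% and 79.5%. TPM values of the EMT genes are therefore low in absolute terms and were read for their order within a library. EPCAM was the most abundant of the 10 genes in both groups, at 122.7 ± 14.4 TPM without DOX and 127.3 ± 35.9 TPM with DOX (SD, n = 3). Without DOX it was followed by CDH1 at 25.3 ± 3.82 TPM and FN1 at 20.1 ± 4.91 TPM. Their ranges over the DOX-negative libraries overlapped, but CDH1 was above FN1 within each of these libraries. Next came VIM at 8.98 ± 1.10 TPM and CDH2 at 2.59 ± 0.33 TPM, each separate from its neighbours. TWIST1 (1.23 ± 0.22 TPM), SNAI1 (1.02 ± 0.26 TPM) and ZEB1 (0.79 ± 0.12 TPM) overlapped as neighbours in this order. SNAI2 (0.087 ± 0.054 TPM) and ZEB2 (0.014 ± 0.0036 TPM) were lowest.

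With DOX, the order changed at 1 place. FN1, at 45.9 ± 8.02 TPM, stood above CDH1, at 27.9 ± 5.25 TPM, and the ranges of the 2 genes over libraries no longer overlapped. The ratio of FN1 to CDH1 in TPM was 0.92, 0.73 and 0.72 in the DOX-negative libraries and 1.40, 1.65 and 1.95 in the DOX-positive libraries. The ratio of CDH1 to CDH2, the E-cadherin to N-cadherin ratio, was 10.2, 9.66 and 9.36 without DOX and 11, 12.6 and 13 with DOX. E-cadherin transcripts thus exceeded N-cadherin transcripts in all 6 libraries, and the ratio was higher in each DOX-positive library. By contrast, the ratio of EPCAM to VIM was 14.0, 13.4 and 13.5 without DOX and 10.8, 9.20 and 12.2 with DOX, lower in each DOX-positive library. The ratio of ZEB1 to ZEB2 was between 47.8 and 64.4 in the 6 libraries.

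**Figure D4:**
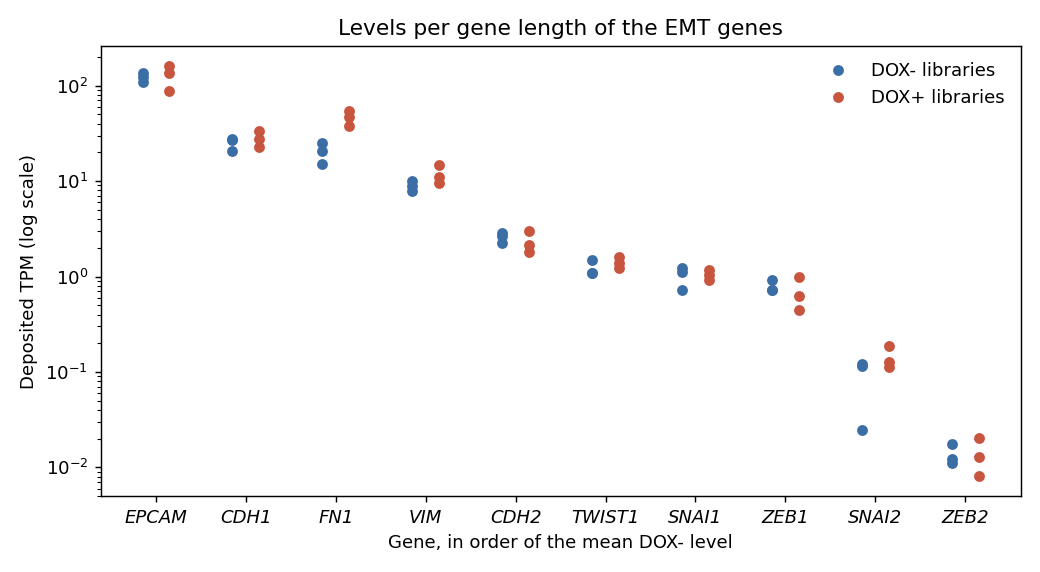
Deposited TPM (log y axis) of each EMT gene in the 3 DOX-negative and 3 DOX-positive libraries, with genes in order of their mean DOX-negative level. Levels run from EPCAM, at 88.2 TPM or more in every library, to ZEB2, at or below 0.020 TPM, and FN1 is the gene that moves past its neighbour.

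The genes whose pattern over the 6 libraries was most like that of FN1 were GPRC5A, AKAP12 and MUC13, in that order. Likeness was the root mean square difference of log2 CPM deviations from each gene's own mean, searched over the 14587 genes whose mean count was 50 or more. It was 0.041 for GPRC5A, 0.069 for AKAP12 and 0.076 for MUC13, where the deviations of FN1 itself had a root mean square of 0.63. GPRC5A, an orphan receptor gene, was 3.76, 2.80 and 2.54 CPM without DOX and 5.6, 6.76 and 8.31 CPM with DOX. MUC13, a transmembrane mucin gene, was 11.4, 8.42 and 7.77 CPM without DOX and 16, 18.4 and 24.0 CPM with DOX. For VIM, the most similar genes were IDNK (0.038), SERTAD4-AS1 (0.048) and LOC101927420 (0.052), where VIM itself varied by 0.18. None of these 3 was called, with adjusted p values of 0.076, 0.13 and 0.27.

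Other genes of the EMT program were then read from lists written from general knowledge. Over the 10 lists 130 genes were tested and 15 (11.5%) were called, 14 of them higher, beside the 4.87% of all tested genes. The lists were chosen with earlier results known, so this share is a description. Without DOX-negative replicate 3, the library that stood apart, only FOXC1 of the 15 was still called (adjusted p = 0.037), although no direction turned. Without DOX-negative replicate 2 the count was 3, with FOXC1 and CLDN1 among them. Fits without another single library left 9 (DOX-negative replicate 1), 13, 12 and 7 (DOX-positive replicates 1, 2 and 3) of the 15 called. Among 14 other EMT-inducing transcription factors, 9 were tested and 1 was called. This was FOXC1, a forkhead factor, which rose from 12.7 ± 0.38 to 20.7 ± 2.04 CPM (SD, n = 3), or by 0.71 on the log2 scale (SE 0.095, adjusted p = 0.0033). TWIST2 had 0 counts in every library, and FOXC2, FOXQ1, HMGA2 and TCF4 had at most 2 counts in any library. The list median was -0.061. Of 9 tested corepressors used by SNAI and ZEB factors, such as CTBP1 and KDM1A, 0 were called by edgeR (2 at an unadjusted p under 0.05) and 1, CTBP1, by DESeq2, and the median was -0.051. Among 14 EMT-inducing signals, 13 were tested and SMAD7, the inhibitory SMAD of TGF-beta signaling, was called. It rose from 12.8 ± 0.65 to 17.4 ± 2.64 CPM (log2 fold change 0.44, SE 0.11, adjusted p = 0.048), a call lost in 14 of 19 alternatives. The other 12 tested signals were not called, and the list median was -0.19.

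On the epithelial side, 3 of 32 junction and polarity genes were called, all higher, with a list median of 0.12. CLDN1, a tight junction claudin, was 15.4, 14.6 and 12.8 CPM without DOX and 21.5, 23.1 and 31.1 CPM with DOX. The groups did not overlap, and CLDN1 rose 1.77-fold (log2 fold change 0.82, SE 0.13, adjusted p = 0.0085). RAB25, an epithelial GTPase of membrane recycling, rose 1.49-fold at low abundance (0.58, SE 0.14, adjusted p = 0.040) and lost its call in 9 of 19 alternatives. Of 16 epithelial-state factors, 15 were tested and 2 were called, both higher. EHF, an epithelial ETS factor, was 10.2, 8.45 and 9.35 CPM without DOX and 14.4, 13.9 and 23.5 CPM with DOX (0.89, SE 0.19, adjusted p = 0.027). Its call was lost in 7 of 19 alternatives. GRHL3, a grainyhead factor of epithelia, rose from 9.15 ± 0.74 to 12.9 ± 1.14 CPM (0.50, SE 0.10, adjusted p = 0.021), a call lost in 6 of 19. GRHL2, ESRP1 and OVOL2, which maintain epithelial identity, changed by 0.026, -0.030 and 0.035 and were not called. MIR200CHG, the transcript that hosts the miR-200c and miR-141 hairpins, changed by -0.049 (adjusted p = 0.90), and the mature miRNAs were not measured here.

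Among 32 mesenchymal and matrix genes, 20 were tested, 4 were called higher and 0 lower, with a median of 0.11. COL1A1, a chain of type I collagen, rose from 8.16 ± 0.93 to 12.4 ± 1.45 CPM (0.597, SE 0.12, adjusted p = 0.019). COL1A2, which encodes the partner chain, was 14.6, 21.5 and 18.3 CPM without DOX and 13.9, 12.6 and 6.81 CPM with DOX (-0.71, SE 0.27, adjusted p = 0.20). The estimates of the 2 chains thus did not share a direction, and COL1A2 was not called. CALD1, an actin-binding protein gene, rose 1.64-fold (0.72, adjusted p = 0.022). LUM, a matrix proteoglycan gene, rose 2.08-fold (1.06, adjusted p = 0.030), a call lost in 6 of the 17 alternatives that gave a value. COL3A1, POSTN, THY1 and MMP2 had 0 counts in every library.

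Of the partners of the EMT genes, 9 of 12 fibronectin receptors and partners were tested and 0 were called by edgeR (4 at an unadjusted p under 0.05), against 1, ITGA9, by DESeq2. ITGB1, the integrin subunit of most fibronectin receptors, was 389.6 ± 15.4 CPM in DOX-negative and 384.4 ± 40.7 CPM in DOX-positive libraries (SD, n = 3). Its partner ITGA5 was 0.42, 0.53 and 0.34 CPM without DOX and 0.66, 0.82 and 0.92 CPM with DOX (0.87, SE 0.25, adjusted p = 0.070). ITGA9 was 18.5 ± 0.26 and 15 ± 0.86 CPM (-0.30, adjusted p = 0.068). Among 12 genes of the cadherin-catenin complex, only CTNNB1 (β-catenin) was called in the reported fit, with a log2 fold change of -0.28 and an adjusted p of 0.044 that passed 0.05 in 7 of 19 alternatives. Of 17 other classical cadherins, 6 were tested and 2 were called, both higher. These were CDH5 (0.94, SE 0.17, adjusted p = 0.013) and CDH24 (0.37, SE 0.091, adjusted p = 0.038), and 5 cadherins of this list had 0 counts throughout. The call of CDH24 was lost in 7 of 19 alternatives, and that of CDH5 in 3 of the 17 that gave a value. Of 9 intermediate filament genes of types III and IV, 6 were tested and NEFL, a neurofilament gene, was called (0.57, SE 0.13, adjusted p = 0.033), with a list median of 0.22. NEFL lost its call in 7 of the 17 alternatives that gave a value.

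**Figure D5:**
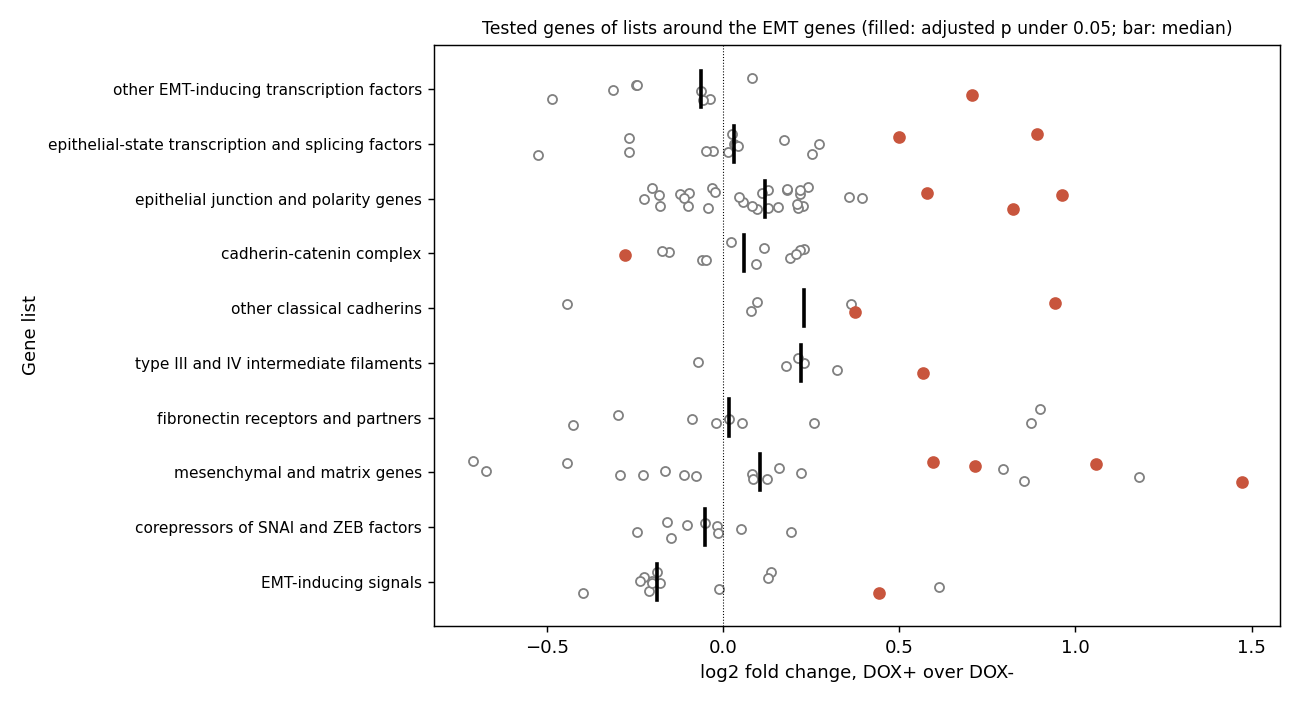
Log2 fold change (x axis) of every tested gene in the 10 lists around the EMT genes, 1 list per row, with called genes filled and the list median as a bar. Filled points lie above 0 in each list that has any, except CTNNB1 at -0.28 in the cadherin-catenin complex.

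Markers of other cell types were read beside these results. Of 8 fibroblast markers, COL3A1 and THY1 were at 0 in every library, DCN and PDGFRB had at most 2 counts, and PDGFRA had at most 9. COL1A1 and LUM, described above, were the 2 called members of this list. The summed fibroblast level was 25.2 to 30.7 CPM without DOX and 23.5 to 27.9 CPM with DOX. In this sum COL1A2, which was not called, had a mean of 18.1 CPM without DOX and 11.1 CPM with DOX. Its estimate was opposite in direction to those of COL1A1 (8.16 and 12.4 CPM) and LUM (1.20 and 2.49 CPM). Of 3 endothelial markers, CDH5 and VWF rose (0.94 and 0.97, adjusted p = 0.013 and 0.018), whereas PECAM1 had at most 6 counts in any library. The summed endothelial level was 3.09 to 4.76 CPM without DOX and 6.24 to 8.35 CPM with DOX. The leukocyte markers PTPRC and CD3E had at most 1 count, and with CD14 the list summed to 1.36 to 1.66 CPM without DOX and 1.49 to 1.85 CPM with DOX. Of the 5 neuroendocrine markers, NCAM1 (-0.50, adjusted p = 0.014) and INSM1 (-0.45, adjusted p = 0.039) fell. The other 3 were not called, namely CHGA (-0.20, adjusted p = 0.19), SYP (-0.029, adjusted p = 0.87) and ENO2 (0.13, adjusted p = 0.71). The summed neuroendocrine level was lower in each DOX-positive library, and the summed endothelial level moved the other way. The part of either list in the FN1 and VIM results was not tested. Without DOX-negative replicate 3, NCAM1, INSM1, CDH5 and VWF were no longer called (adjusted p = 0.082, 0.17, 0.091 and 0.086).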

How the data were processed

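RNA-seq was performed on H660/tet-MUC1shRNA cells. Sample titles gave the group and replicate number. Libraries were, per the labels, made with a TruSeq stranded mRNA kit, and the submitters' processing notes name STAR, DESeq2 and GRCh38 (hg38). The deposited tables hold unnormalized read counts by gene symbol and TPM, which scale counts by gene length to a common total in each library. Versions, annotation, counter, strand setting and multi-mapping were not given in the sources used here. Structured RNAs hold most of the TPM, so their amount moves the TPM of every other gene.

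The main test was edgeR 4.0.16 in R 4.3.3: filterByExpr, TMM factors, then glmQLFit with robust estimation and glmQLFTest without covariates. Benjamini-Hochberg adjustment ran over 17026 genes. A positive log2 fold change means higher with DOX, SE came from the F statistic, and CPM used TMM factors. The 95% intervals used the total degrees of freedom of the fit, which add prior to residual degrees of freedom. Alternatives were RLE, upper-quartile or no factors, no or a stricter count filter, DESeq2 1.42.0, limma-voom (limma 3.58.1), no robust estimation, a replicate block, limma-trend on log2 TPM (pseudocount 1 or 0.1), and leaving out each library. TPM rescaled over protein-coding genes was added after the data were seen. The code was tested on simulated counts.

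The EMT genes, the lists and the tests were chosen with earlier results of these data known. Named genes are the 10 EMT genes, MUC1, up to 4 called genes per list with the largest change, 3 genes per called EMT gene with the most similar pattern, and markers. Uncalled list genes, genes at or near 0 and genes counted in a single library were named after their values were seen. Gene positions, biotypes and promoters came from RefSeq tables (GRCh38.p14), which matched 25658 of the 28008 symbols. Some called or marker genes of the lists are counted but not reported here by name.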

Additional observations from a re-analysis of the deposited data

How the results depend on the processing

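The 2 called EMT genes, FN1 and VIM, were both called under RLE, upper-quartile or no scaling factors, with no or a stricter count filter, with DESeq2 and limma-voom, without robust estimation and on TPM rescaled over protein-coding genes. Among genes with a mean TPM of 1 or more, limma-trend called 1 (FN1) with a pseudocount of 1 and also with 0.1, and on unfiltered log2(TPM + 1) 0 were called by limma-trend (1 at an unadjusted p under 0.05). Leaving out 1 library gave from 1 to 2, with VIM lost. Over all genes the 829 calls became 1354 with DESeq2, 30 and 35 on filtered log2(TPM + 1) and log2(TPM + 0.1), 0 on unfiltered log2(TPM + 1) (1248 at an unadjusted p under 0.05) and 470 on rescaled TPM. Leaving out 1 library gave from 58 to 1035, the lowest counts being 58 when DOX-negative replicate 3 was omitted, 127 on omission of replicate 2 of that group, and 375 on omission of DOX-positive replicate 3. DESeq2 and unfiltered TPM tested 22564 and 21241 genes. The cause of the other changes was not tested. A fit with the replicate number as a block (replicate block) gave 998 called genes, 1 of them an EMT gene (VIM), FN1 having an adjusted p of 0.062 at a change of 1.19. Deviations of same-numbered libraries had correlations of -0.54, 0.019 and -0.105 over 14587 genes. With so few libraries per group, these values cannot settle whether the numbers pair the samples.

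EPCAM, at 0.00069, changed sign in 11 alternatives: -0.0051 (RLE), -0.0042 (upper quartile), -0.0077 (no factors), -0.0062 (stricter filter), -0.0026 (DESeq2), -0.0044 (limma-voom), -0.0057 (replicate block), -0.018 (rescaled TPM) and, without 1 library, a range of -0.068 to 0.095. ZEB2 was 8.3e-05 on unfiltered log2(TPM + 1) and from -0.24 to 0.10 without 1 library, and SNAI1 was from -0.084 to 0.096 without 1 library. Over the EMT genes, 154 alternative values kept direction and side of the threshold, 9 lost the threshold and 16 changed sign. Over 19 other named genes (MUC1 and called list or marker genes), 233 kept both, 111 lost the threshold and 0 changed sign. ZEB2 and SNAI2 gave no value where a count or TPM filter removed them, nor ZEB1 where the TPM filter did, and DESeq2 gave ZEB2 no adjusted p. With few counts, SNAI2 and ZEB2 have the widest intervals of the EMT genes.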

Other observations

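The 15 genes counted in DOX-negative replicate 3 and nearly absent elsewhere included several that belong to plasma cells or other lymphoid cells. JCHAIN had 167 counts in this library against 1 in the other 5 together, IRF4 had 92 against 1, IGLL5 had 55 against 1, CD48 had 12 against 0 and SLAMF7 had 11 against 1. MSN (54 counts) and ITGA4 (17 counts), which were listed here as a mesenchymal gene and a fibronectin receptor, were at 0 in the other libraries, and AKR1B1 had 15 counts. Together the 15 genes held 587 of the 47620696 counts of the library. The same library had the lowest SNAI2 count, 5, and without it the SNAI2 change fell from 0.68 to 0.32.

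GPRC5A, AKAP12 and MUC13 were picked above as the genes most like FN1 over these same 6 libraries. Their rise with FN1 follows from that choice, so the values given here are a description. AKAP12, a kinase anchoring protein gene, was 5.35, 4.72 and 4.03 CPM without DOX and 9.18, 10.3 and 13.3 CPM with DOX, a rise of 1.21 on the log2 scale (SE 0.15, adjusted p = 0.0024 by edgeR). GPRC5A changed by 1.18 (SE 0.18, adjusted p = 0.0059) and MUC13 by 1.08 (SE 0.17, adjusted p = 0.0087), where MUC1 changed by -1.32.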
